A study of Nematostella vectensis with 10 samples.

Results

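The genes described here are *sox2* (NV2.18482) and *SoxA* (NV2.15027), the 2 Sox genes in the study's list of published cnidocyte genes, out of 24520 genes measured in *Nematostella vectensis* gastrulae. They were taken by gene number and not by their values, although the study marked *sox2* as responding to *Nvznf845* on these same libraries, so its response is not independent evidence of that mark. *SoxA* is marked for *NvfoxE-like* only. Poly(A) RNA of whole wildtype embryos was sequenced at 28 hpf after growth at 24 °C. Embryos were injected with either an shRNA against *Nvznf845*, a zinc finger gene, or a scramble RNA as control, with 5 libraries in each group and about 1000 embryos pooled in each library. The libraries form 5 pairs, 1 knockdown and 1 control under a shared number and batch label. Pairs 1, 2 and 3 carry the batch labels LA40, LA42 and LA45, and pairs 4 and 5 share LA48.

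Sox proteins bind DNA through an HMG box, which sits in the minor groove and bends the helix, and they act mostly with partner factors at the regulatory elements of genes that set cell fate. In the sea anemone, Sox genes are expressed in the progenitors that give rise to neurons and cnidocytes, the stinging cells of cnidarians. *sox2* acts in the developing stinging cells themselves. There it favours the piercing nematocyte over the spirocyte, an ensnaring stinging cell without barbs. In mammals the gene named Sox2 maintains pluripotent and neural progenitor cells, and the A group of Sox genes holds Sry, the testis-determining gene. No role is given for *Nematostella* *SoxA* in the sources used here.

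Total counts ran from 18890958 to 49293043 per control library and from 20848743 to 35959898 per knockdown library. Pair 3 stands apart. Its 10 most abundant genes took 67.4% of the counts in the knockdown library and 56.0% in the control, against 6.24% to 33.3% in the other 8 libraries. Levels are therefore given as CPM, counts scaled to an effective library size that sets aside such dominant genes (TMM scaling), and on this scale the knockdown library of pair 3 is the shallowest, with 13091187 effective counts. The targeted gene *Nvznf845* (NV2.17877) fell in every pair, to 18.4%, 22.7%, 11.5%, 22.1% and 18.5% of its control level in pairs 1 to 5. The gene lists at hand name cnidocyte genes alone, so the embryos could not be checked against markers of other cell types. All 22 listed cnidocyte effector genes had counts in every control library.

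In control gastrulae *sox2* had a high level per transcript length and *SoxA* a low one. Each is annotated with a single transcript, of 1434 bases for *sox2* and 8427 bases for *SoxA*, so the genes can be compared only per length, in the length-normalized values (TPM, transcript share of a library) that the authors deposited. *sox2* was at 45.3, 61.6, 24.6, 50.6 and 55.1 TPM in control libraries 1 to 5. *SoxA* was at 1.43, 1.98, 1.83, 3.00 and 3.09 TPM in the same libraries. No control value of *SoxA* came near any of *sox2*. The means were 47.5 ± 14.1 and 2.27 ± 0.737 TPM (SD, n = 5 each). By mean control TPM *sox2* ranked 2402 of the 24520 genes and *SoxA* 14394. In CPM, which is not per length, the control means were 35.1 for *sox2* and 11.7 for *SoxA*. The median over tested genes was 11.6 CPM. The size of the gap in TPM thus rests on the annotated transcript lengths. The TPM of *sox2* was 31.6, 31.2, 13.4, 16.9 and 17.8 times that of *SoxA* in control libraries 1 to 5, a mean log2 difference of 4.32 after adding 0.1 TPM. The exact two-sided sign-flip test gave p = 0.063, the smallest value that 5 libraries allow.

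Among the cnidocyte transcription factor genes the control level of *sox2* lay in a group of similar genes. By mean TPM the order was *foxA* (131 ± 45.8), a forkhead gene, *Nvznf845* (71.6 ± 20.3), *coup-like1* (54.5 ± 18.0), an orphan nuclear receptor gene, *sox2* (47.5 ± 14.1), the paired-box gene *NvpaxA* (45.2 ± 14.1) and *NvfoxE-like* (40.9 ± 13.0), another forkhead gene (SD, n = 5 controls each). The means of *sox2* and its neighbours *coup-like1* and *NvpaxA* differed by less than 1 SD, which is the spread of each gene over the same control libraries. Within control libraries the log2 count ratio of *sox2* varied less against *NvfoxE-like* (SD 0.092) and *coup-like1* (SD 0.11) than against *NvpaxA* (SD 0.41). Its SD was also small against *coup-like2* (0.12) and *foxL2* (0.16), so this was not particular to *coup-like1*. Whether the levels of these genes differ within libraries was not tested. At the other end only *myc5* (0.272 ± 0.0957 TPM), a relative of the Myc growth regulator, was below *SoxA* among the 15 factor genes with values here.

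*sox2* fell after *Nvznf845* knockdown, to 42.6% of its control level, and the fall was of nearly the same size in every pair. Control libraries 1 to 5 held 40.3, 43.2, 28.3, 30.2 and 33.4 CPM of *sox2*. Knockdown libraries 1 to 5 held 16.4, 17.2, 13.1, 14.2 and 13.9 CPM. No knockdown value reached the lowest control value, which holds for 4.75% of the 19001 genes tested. The means were 35.1 ± 6.45 and 15.0 ± 1.75 CPM (SD, n = 5 each), and the log2 fold change was −1.23 (95% interval −1.54 to −0.92, edgeR quasi-likelihood test, adjusted p = 8.14e-05 by Benjamini-Hochberg over the tested genes). To be called, a gene needed a change of at least 1.5-fold besides an adjusted p up to 0.05, and 4.23% of tested genes were called lower. *sox2* was 1 of the 803 genes called lower, and 681 of these had a larger fall than *sox2*. Without pair 3 its log2 fold change was −1.26 (adjusted p = 0.000206 from edgeR).

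*SoxA* was lower in all 5 pairs, as 8.35% of tested genes were, but its difference was smaller and the gene was not called. Control libraries 1 to 5 held 8.94, 9.68, 14.7, 12.2 and 13.1 CPM of *SoxA*. Knockdown libraries 1 to 5 held 5.78, 7.29, 11.9, 10.4 and 10.2 CPM, so the groups overlapped. On this scale the 3 knockdown libraries of batches LA45 and LA48 lay above the control libraries of LA40 and LA42. The means were 11.7 ± 2.38 and 9.12 ± 2.51 CPM (SD, n = 5 each). The log2 fold change was −0.37 (95% interval −0.82 to 0.092, adjusted p = 0.555 from edgeR), and −0.39 without pair 3 (adjusted p = 0.458). With the replicate block, which compares libraries within pairs, the interval was −0.63 to −0.14 and the adjusted p 0.0894 (edgeR). With a batch block the interval was −0.60 to −0.17 and the adjusted p 0.0434 (edgeR), within the limit on p. The fold change was −0.38 with either block. These values are all under the 1.5-fold limit, so *SoxA* could not be called whatever the p-value.

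**Figure D1:**
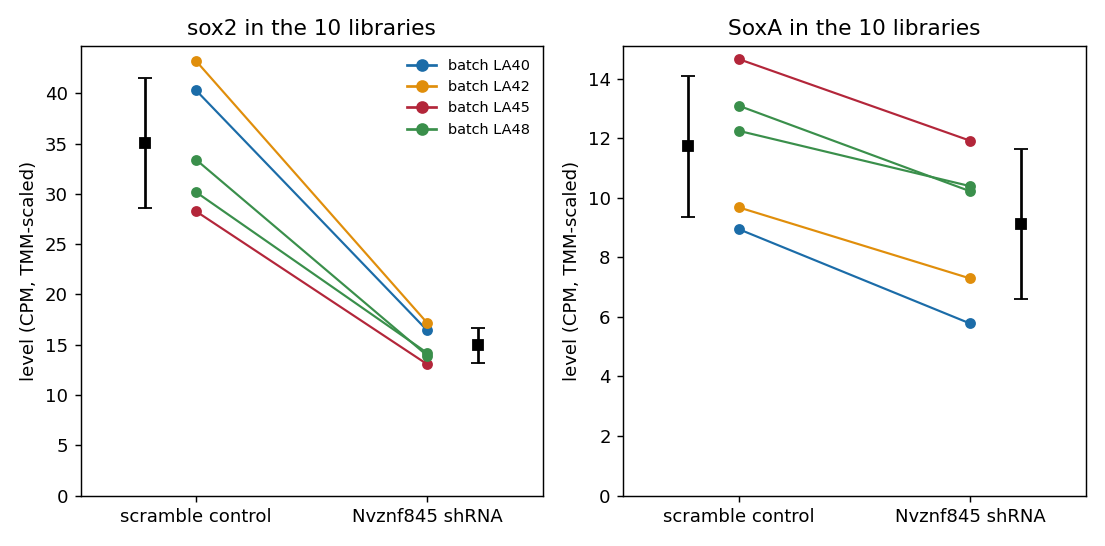
Levels of *sox2* (left) and *SoxA* (right) in CPM after TMM scaling, with each line joining the control and knockdown library of a pair, coloured by batch, and squares giving the group mean with its SD (n = 5). For *sox2* all knockdown libraries (13.1 to 17.2 CPM) are below all controls (28.3 to 43.2 CPM), while for *SoxA* every line goes down but the groups overlap.

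Within pairs 1 to 5 the log2 ratio of knockdown to control was −1.29, −1.33, −1.11, −1.09 and −1.26 for *sox2*. For *SoxA* it was −0.63, −0.41, −0.30, −0.24 and −0.36. In each pair *sox2* kept the smaller part of its control level, 39.7% to 47.0% against 64.6% to 84.9% for *SoxA*. The SD of the 5 ratios was 0.11 for *sox2* and 0.15 for *SoxA*, and it ran from 0.20 to 0.97 in the other 13 factor genes, which differ in depth. The ratios of the targeted gene in pairs 1 to 5 were −2.44, −2.14, −3.12, −2.18 and −2.43. Pair 3, with the deepest fall of *Nvznf845*, was not the pair with the largest difference for either Sox gene. For *SoxA* that was pair 1, and for *sox2* it was pair 2. A test of whether the response differed between the 4 batches gave an adjusted p of 0.851 for *sox2* and 0.726 for *SoxA* (edgeR, interaction of treatment and batch), a term that 2.27% of tested genes passed. Only batch LA48 holds more than 1 pair, so this test has little power and does not show that the responses were equal.

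**Figure D2:**
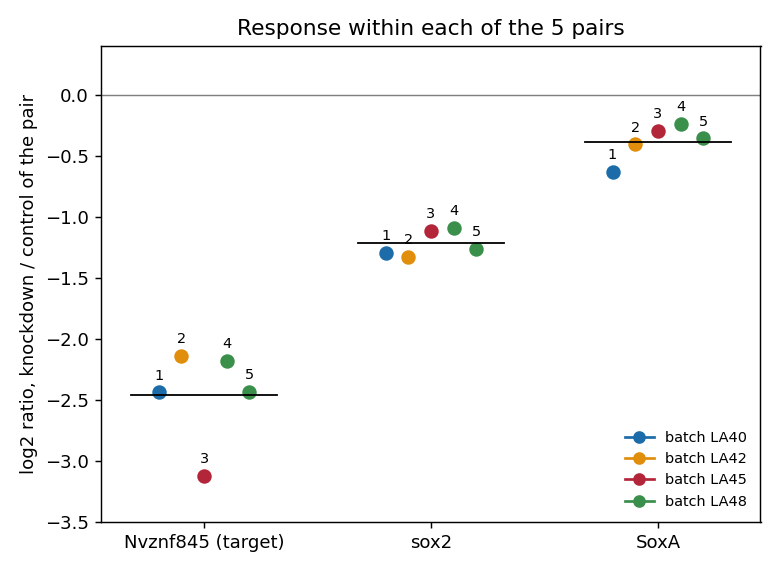
Log2 ratio of knockdown to control CPM in each pair (numbered points, coloured by batch; line, mean) for *Nvznf845*, *sox2* and *SoxA*. The *sox2* points lie between −1.33 and −1.09, all below the *SoxA* points (−0.63 to −0.24), and the lowest point of *Nvznf845* (−3.12) is pair 3.

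The ratio of *sox2* to *SoxA* within a library needs no scaling between libraries, and it dropped in every pair. In TPM it went from 31.6 to 19.9 in pair 1, from 31.2 to 16.4 in pair 2, from 13.4 to 7.51 in pair 3, from 16.9 to 9.48 in pair 4 and from 17.8 to 9.48 in pair 5. The log2 ratio of counts (with 0.5 added to each) changed by −0.67, −0.92, −0.81, −0.85 and −0.91 in pairs 1 to 5, a mean of −0.83 ± 0.10 (SD, n = 5 pairs). Across groups the ratios overlapped, because controls themselves differed between batches by more than this change. An exact two-sided permutation test of the treatment labels over the 10 libraries gave p = 0.0635. The exact sign-flip test over the 5 pairs gave p = 0.063, the smallest it can give, so a difference in response was seen in 5 of 5 pairs but neither test passed 0.05. Leaving out the knockdown library of pair 1 gave a difference of −1.02 (exact permutation p = 0.0397). Without any 1 of the other 9 libraries the difference was −0.68 to −0.99 and the exact permutation p 0.0635 to 0.119.

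**Figure D3:**
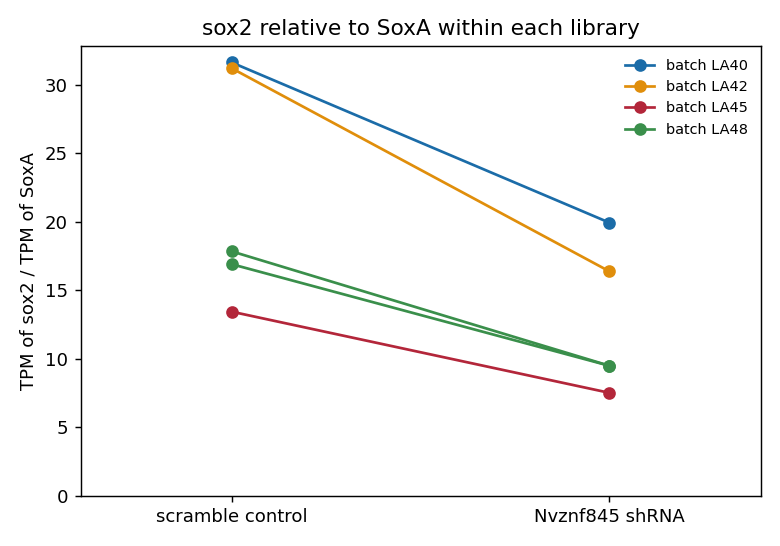
TPM of *sox2* divided by TPM of *SoxA* in each library, with lines joining pairs and colours giving the batch. All 5 lines go down, from 13.4 to 31.6 in controls to between 7.51 and 19.9 after knockdown, and the lines of LA40 and LA42 stay above the others.

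The levels of the Sox genes relative to each other differed between batches, whatever the scaling. In control TPM the ratio of *sox2* to *SoxA* was 31.6 and 31.2 in LA40 and LA42, and 13.4 to 17.8 in LA45 and LA48. The levels of each gene depended on the scaling. On the TMM scale control *sox2* was highest in LA40 and LA42 (40.3 and 43.2 CPM), lower in LA48 (30.2 and 33.4) and lowest in LA45 (28.3). On the same scale *SoxA* was lowest in LA40 and LA42 (8.94 and 9.68 CPM), higher in LA48 (12.2 and 13.1) and highest in LA45 (14.7). The knockdown libraries had the same order of batches for each gene on this scale. In a fit with treatment and batch, LA42, LA45 and LA48 differed from LA40 by 0.22, 0.87 and 0.66 on the log2 scale for *SoxA*, and by 0.083, −0.42 and −0.28 for *sox2*. The batch term passed for *SoxA* (adjusted p = 0.0415 from edgeR) and not for *sox2* (adjusted p = 0.141), against 2.61% of tested genes that passed. On library size alone the fitted difference from LA40 changed sign for *SoxA* in LA45 (−0.14 on the log2 scale) and for *sox2* in LA48 (0.21). It kept its sign for *sox2* in LA45 (−1.43) and for *SoxA* in LA48 (1.17). In the controls alone *SoxA* was still slightly higher in LA45 (8.54 CPM) than in LA40 (8.10 CPM) on library size. With this scaling the batch term passed for *sox2* too (adjusted p = 0.000316 from edgeR), as it did for 14683 of the 19001 genes. In TPM as well, control *SoxA* was lower in LA45 (1.83) than in LA42 (1.98), and control *sox2* was higher in LA48 (50.6 and 55.1) than in LA40 (45.3). Whether the batches differ in collection, stage or library preparation is not given by the labels, and the share of dominant genes was also highest in LA45. Its part in these levels was not tested.

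**Figure D4:**
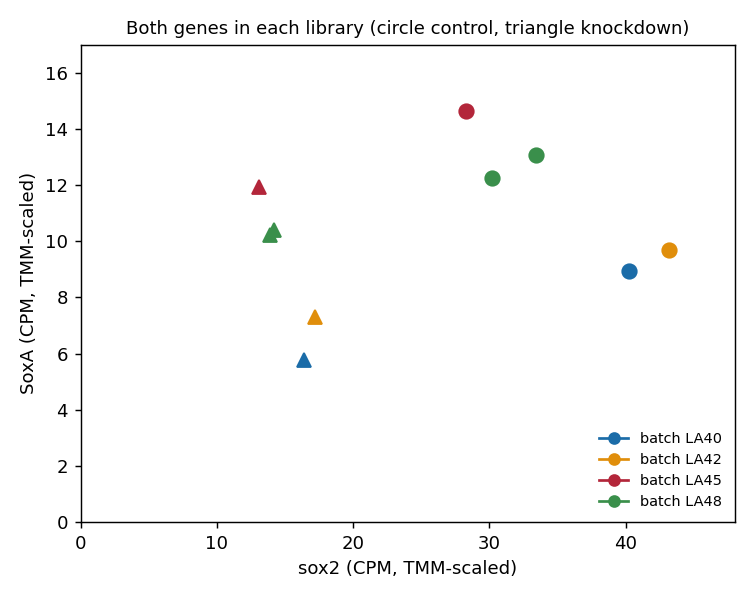
Level of *SoxA* against that of *sox2* in each library (CPM after TMM scaling; circles, control; triangles, knockdown; colours, batch). On this scale, in each group, LA40 and LA42 lie to the lower right and LA45 and LA48 to the upper left, and the knockdown triangles are shifted mainly along the *sox2* axis.

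The spread of both genes between controls was mostly not counting error. *sox2* had 812 to 1332 counts in control libraries and 171 to 564 after knockdown. *SoxA* had 220 to 522 and 132 to 414. The 95% exact Poisson interval of a single count, which covers counting error only, reached 15.3% either side of the 171 counts of *sox2* in knockdown library 3 and 17.5% either side of the 132 counts of *SoxA* in knockdown library 1. Over the controls the coefficient of variation of the CPM was 18.4% for *sox2* and 20.3% for *SoxA*, where counting alone would give 3.17% and 5.62%. These values are near the median of 21.1% over all tested genes. The controls of the shared batch LA48 differed 1.11-fold in *sox2* and 1.07-fold in *SoxA*, while the range over all 5 controls was 1.53-fold and 1.64-fold. Some reads were divided with other transcripts by the authors' quantification: counts were whole (within 1e-06) in 1 of 10 libraries for *sox2* and in 5 of 10 for *SoxA*.

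Of the other 12 transcription factor genes listed, 6 were lower after *Nvznf845* knockdown, 6 were not called and none was higher (none also by DESeq2 or limma-voom, and none at an unadjusted p under 0.05 by edgeR). Over all 19001 genes tested 4.23% were called lower, and only 229 genes were called higher. The median log2 fold change of the 12 listed genes was −1.03, against 0.0099 over all genes tested. The study marked its table on these libraries, so the count is not independent of the marks. The 6 were *cnido-jun*, related to the AP-1 subunit Jun (log2 fold change −6.59), *NvpaxA* (−5.74), *coup-like2* (−3.52), *coup-like1* (−2.93), *GFI1B-like3*, a zinc finger gene named after a vertebrate blood cell repressor (−2.22), and *foxL2*, a forkhead gene (−1.52). Each of these fitted values was larger in size than that of *sox2*. Of the 6 not called, *NvfoxE-like* (−0.54, adjusted p = 0.0425 from edgeR) and the bZIP gene *ATF2-like1* (−0.45, adjusted p = 0.0160) missed only the 1.5-fold limit. Both were lower in all 5 pairs. Without pair 3, 7 of the 12 were called lower, against 866 of the 19145 genes then tested.

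The responses of the Sox genes were set against the 13 other factor genes, *Nvznf845* included, by the change of the within-library count ratio, a comparison chosen after the values were seen. *sox2* rose relative to *Nvznf845* by 1.24 on the log2 scale, to *GFI1B-like3* by 1.01, to *coup-like1* by 1.73 and to *NvpaxA* by 4.56 (exact permutation p = 0.00794 each, the smallest possible, adjusted p = 0.00938 over 13 ratios). It dropped relative to *NvfoxE-like* by 0.68 and to *ATF2-like1*, a bZIP gene, by 0.76 (exact permutation, adjusted p = 0.00938 each). For *foxL2* the change was 0.28 and the groups overlapped (exact permutation p = 0.198), and *foxL2* was the only one of the 13 without a difference from *sox2* at an adjusted p of 0.05. Within pairs 1 to 5 the log2 ratio of *foxL2* was −1.48, −1.99, −0.90, −1.47 and −1.71. It fell by more than *sox2* in pairs 1, 2, 4 and 5 and by less in pair 3. The part of pair 3 in this overlap was not tested. The 95% intervals of the fold changes, −1.54 to −0.92 for *sox2* and −1.95 to −1.08 for *foxL2* (edgeR), leave room for a difference of either sign.

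*SoxA* was not told apart from the 6 factor genes that were not called when libraries were compared by group. Its ratio to *NvfoxE-like* changed by 0.15, to *ATF2-like1* by 0.076 and to *foxA* by −0.11 (exact permutation p = 0.587, 0.675 and 0.738), with SDs of 0.30 to 0.61 between the control libraries. The changes were larger for *cnido-fos*, related to the AP-1 subunit Fos (−0.32), the homeobox gene *Nkx2.2D* (−0.58) and *myc5* (−0.74), with exact permutation p = 0.222, 0.159 and 0.151. Relative to *cnido-fos* and to *Nkx2.2D* *SoxA* was lower in all 5 pairs (exact sign-flip p = 0.063 each, the smallest possible). These tests do not show equal responses. Relative to the 6 called factor genes and to *Nvznf845* it rose, by 1.11 for *foxL2* to 6.19 for *cnido-jun* (exact permutation p = 0.00794 each, adjusted p = 0.0147 over 13 ratios). With the libraries paired, no ratio of either Sox gene could go below an exact sign-flip p of 0.063.

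**Figure D5:**
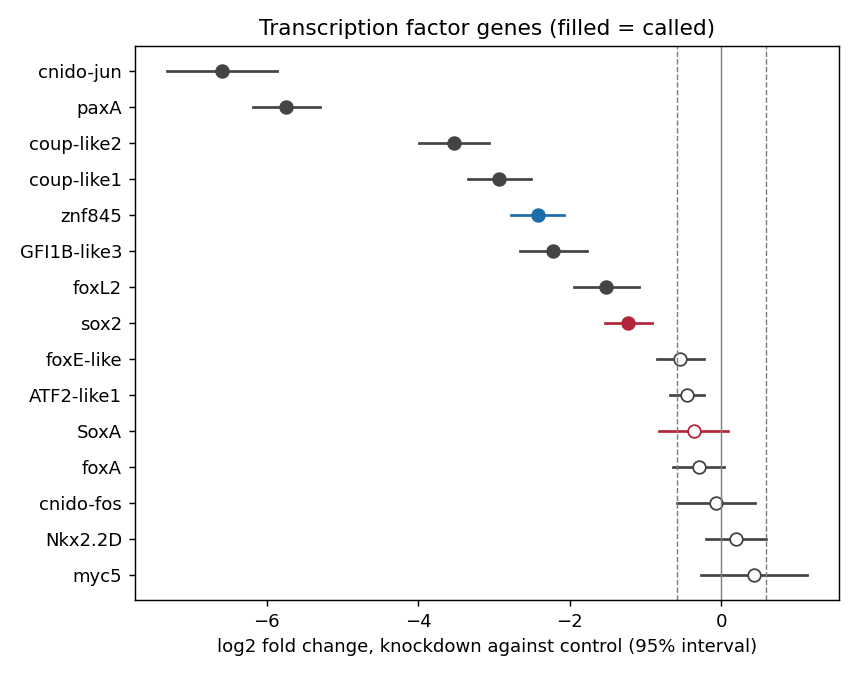
Log2 fold change of each listed transcription factor gene with its 95% interval from edgeR (red, the Sox genes; blue, the targeted gene; filled, called; dashed lines, the limit of 1.5-fold). *sox2* (−1.23) is the filled point nearest to 0, and *SoxA* (−0.37) lies among the open points.

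Effector genes of the stinging cell were mostly lower by more than the Sox genes. The name is used here for the listed genes that are not transcription factors, some known only by a gene model name. Of the 22 listed, among them the minicollagens of the capsule wall, 18 could be tested. Of these, 17 were called lower (94.4%, against 4.23% of all tested genes), with a median log2 fold change of −4.90 over the 18. This count too is not independent of the study's marks. The smallest falls, near that of *sox2* and named after their values were seen, were those of *CALM3-like* and *NVE17236*. *CALM3-like* (−1.20, called) is a calmodulin-like gene. *NVE17236* (−1.29, adjusted p = 0.201 from edgeR) was the 1 that was not called. Without pair 3, all 18 effector genes tested were called lower. The summed level of the 22 was 1048 to 1495 CPM in control libraries and 50.0 to 67.7 CPM after knockdown. Of the 22, 1 had no count in any knockdown library. This was *NEP3*, too scarce to be tested, with 25 counts over all controls together. In whole embryos a smaller number of cells of a type and less RNA per cell cannot be told apart. The part of the loss of these transcripts in the fall of *sox2* was not tested.

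The genes most like each Sox gene over the 10 libraries were named by correlation of log2 CPM among 16804 genes with at least 1 CPM, as a description of libraries that share treatment and batch. For *sox2* they were NV2.2966, NV2.5137 and NV2.23844, with r of 0.990 in each case. Their log2 fold changes were −2.15, −2.08 and −3.41. In all 582 genes had r over 0.9 with *sox2*, and the listed gene closest to it was *coup-like1* (r = 0.981). For *SoxA* the closest were NV2.20524, NV2.24468 and NV2.6775 (r = 0.938, 0.933 and 0.924), and 9 genes had r over 0.9. None of these 3 was called, with log2 fold changes of −0.32, −0.36 and −0.20. Removing the group means left the differences between libraries of a group, of which batch is only a part. The genes closest to *sox2* were then NV2.11740, NV2.5137 and NV2.10185 (r = 0.984, 0.974 and 0.974). Those closest to *SoxA* were NV2.15756, NV2.6234 and NV2.953 (r = 0.945, 0.938 and 0.937). NV2.5137 was thus among the 3 closest to *sox2* in both respects.

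On scales that do not set aside the dominant genes *sox2* lost its call with nearly the same fold change. With library size alone the log2 fold change was −1.25 (edgeR, adjusted p = 0.188). Fitted with limma to log2(TPM + 1) it was −1.25 (adjusted p = 0.0648). Neither fit used the pairing. On these scales the knockdown and control libraries overlapped through control library 3 alone, and *sox2* was still lower in every pair. On library size alone control libraries 1 to 5 held 36.5, 54.4, 16.5, 40.0 and 45.0 CPM of *sox2*. Knockdown libraries 1 to 5 held 16.2, 22.4, 4.76, 18.5 and 19.1 CPM. The spread between controls was also wider, 36.4% and 29.7% of the mean for *sox2*.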

How the data were processed

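Paired-end reads were filtered and trimmed by the sequencing provider. The authors mapped them in Galaxy to Nvec200, and the submitters' processing notes name Salmon (version not given in the sources used here). Per transcript, the deposited estimated counts were summed to genes by gene number and rounded. The deposited TPM, made by the authors per effective transcript length, sum to 1000000 in each library and were used for levels between genes. No 2 libraries of a group were duplicates (median chi-square per gene at least 3.19 times that of sampling noise). Of 35819 transcripts in 24520 genes, 19001 genes passed filterByExpr (minimum 10 counts). They were tested with edgeR 4.0.16 in R 4.3.3 (TMM, robust glmQLFit, glmQLFTest, Benjamini-Hochberg), with condition as the only term and intervals from the square root of F. P-values measure the spread between embryo pools. Alternatives used DESeq2 1.42.0 at its default filtering, limma 3.58.1, other scalings, filters, blocks, effective-length offsets and libraries left out. The edgeR test was tested on simulated data.

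The pairing comes from the paper and from the batch label that same-numbered libraries share. The correlation of their deviations around each group mean in pairs 1 to 5 was 0.474, −0.039, 0.191, 0.164 and 0.609. The pairing is not stated to have entered the study's model, so it was left for an alternative.

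The members and lists were chosen with earlier results of these data known. Named genes are the Sox genes, *Nvznf845*, 12 other factor genes of the study's list, and for each Sox gene the 3 closest by Pearson correlation over 10 libraries of log2 CPM (prior count 2) and of its deviations from the group means. The 22 effector genes are the remaining numbered genes of that list, and 1 factor gene of it is not reported here. The batch terms and the ratios to other factors were added after the values were seen. Knockdowns of other genes were not analysed here, and the files give no sequences or coordinates.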

Additional observations from a re-analysis of the deposited data

Results flagged for a closer look

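One library value stood far from the others of its group. In knockdown library 3 *foxL2*, the forkhead gene whose response was closest to that of *sox2*, was at 2.60 CPM, against 1.53 to 1.84 CPM in the other 4 knockdown libraries. The gap took 71.1% of the range of the group. This was 1 of 39 groups of 5 values checked, and chance puts about 1 in 20 past the limit. No value of *sox2* or *SoxA* in CPM, in TPM or as a ratio was past it. Pair 3 was also the only pair in which *foxL2* fell by less than *sox2*.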

How the results depend on the processing

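The log2 fold change of *sox2* was −1.30 to −1.14 under 31 alternatives, and 28 kept its call. The 3 others were library size alone (−1.25), log2(TPM + 1) (−1.25) and log2(TPM + 0.1) (−1.30, adjusted p = 0.0647 from limma). Leaving out libraries or pairs gave −1.30 to −1.14. *SoxA* stayed uncalled under all 31, at −0.49 to −0.25, and only the batch block passed the adjusted p (0.0434 from edgeR) at a log2 fold change of −0.38. The replicate block gave −1.22 for *sox2* and −0.38 for *SoxA* and changed no call. The difference between the responses was −1.02 to −0.68 when libraries or pairs were left out, past 0.05 only without knockdown library 1. The log2 difference in level was 3.86 to 4.48 in controls and 3.46 in the knockdown libraries. The coefficient of variation between controls was 29.7% (*sox2*) and 32.5% (*SoxA*) in TPM and 36.4% and 34.6% on library size alone. The batch term of *sox2* went from an adjusted p of 0.141 to 0.000316 on library size alone, and that of *SoxA* was at most 0.0484 in 3 alternatives (edgeR). The number of genes called lower was 660 to 960 over 29 alternatives, against 803. The causes were not tested. Depth limits *sox2* most in knockdown library 3 (171 counts) and *SoxA* most in knockdown library 1 (132 counts).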
